A study of Mus musculus with 12 samples.

Results

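Brown and inguinal white fat of the KI-HFD mice were compared gene by gene. The libraries were chosen by their titles, BAT KI-HFD 1 to 3 (brown adipose tissue) and IWAT KI-HFD 1 to 3 (inguinal white adipose tissue), and make up 6 of the 12 libraries of the series. All 6 came from C57BL/6 mice whose genotype label reads Adv-CGRPalpha+/- and whose titles read HFD, a high-fat diet, so that the depots shared both. The labels used here give no age, sex or duration of the diet, do not say how the allele was made or which cells carry it, and the design text states 3 per group without saying whether both depots of an animal were taken. The p-values therefore measure the spread between these libraries. The other 6 libraries, titled WT-NC, came from the same depots of wild-type mice on normal chow. They were used to ask whether the depot difference itself differed between the groups. They also entered an alternative fit of the KI-HFD depot difference with all 12 libraries. Each library was made from poly-A RNA of a whole depot, read without strand information.

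Brown adipocytes hold many small lipid droplets and mitochondria packed with uncoupling protein 1, which lets protons return across the inner membrane without making ATP and so releases the energy of burned fat as heat. White adipocytes hold a single large droplet, store triglyceride for other organs and secrete hormones such as leptin. Inguinal fat lies under the skin, borders the mammary glands and a lymph node, and can gain brown-like adipocytes in the cold. Interscapular brown fat lies against back muscle, and its adipocytes share an embryonic origin with muscle cells.

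The BAT KI-HFD libraries held 20376897, 20898318 and 17735005 counts in genes, against 22495211, 21078914 and 21264578 for IWAT KI-HFD. Levels are given in CPM, counts relative to library size after scaling by the trimmed mean of M-values (TMM). The depots separated along the first principal component of log2 CPM, which held 71.5% of the variance. Brown adipocyte markers summed to 16402, 15110 and 15398 CPM in the BAT libraries against 21.1, 117 and 50 in the IWAT libraries, and white or inguinal markers to 182, 117 and 315 against 7173, 4340 and 3713. The brown sum in BAT rests mostly on Ucp1 and the white sum in IWAT mostly on Lep. Of the 7 brown markers 6 were higher in BAT, while Lhx8 overlapped between the depots. All 5 tested white or inguinal markers were lower in BAT. Zic1 was at 0 in IWAT and Tcf21 at 0 in both depots. Markers of 2 neighbouring tissues also moved. All 7 skeletal muscle markers were higher in BAT and summed to 11373, 8504 and 1733 CPM against 124, 31.7 and 96.1, so that BAT replicate 3 held far less muscle RNA than the other BAT libraries. Over the same BAT libraries mitochondrial genes took 5.23, 9.34 and 11.7% of counts. Reads in no gene were 4.99, 7.64 and 10.1% of entries. An order among the BAT libraries therefore cannot tell muscle RNA apart from these other traits. Lymph node markers summed to 735 CPM in IWAT replicate 3 and to no more than 14.1 in the other libraries, while epithelial markers reached at most 2.1 CPM. In whole tissue, fewer cells of a type and less RNA per cell cannot be told apart.

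**Figure D1:**
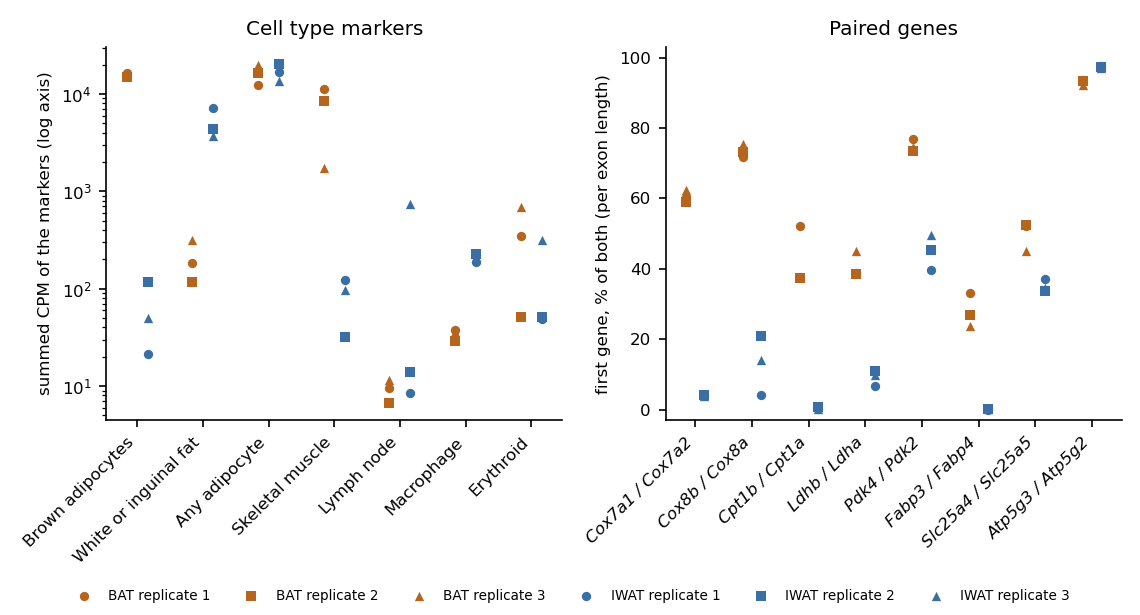
Left, summed CPM of 7 marker sets in each library on a log axis. Right, the first gene of each pair as a percentage of both, from counts per exon length. Brown, white and macrophage markers separate the depots, muscle markers are lowest among BAT libraries in replicate 3, and lymph node markers are high only in IWAT replicate 3 among the 6 libraries. The BAT share of Cox7a1 lies between 59.1 and 62.5% and the IWAT share between 3.75 and 4.27%.

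Of 15721 genes tested, 5455 differed between the depots at an adjusted p under 0.05 (edgeR quasi-likelihood test, Benjamini-Hochberg adjustment), or 34.7%. Higher in BAT were 2643 genes (16.8%) and lower 2812 (17.9%), and the median log2 fold change over all genes was -0.04. At least 2-fold higher were 2080 genes (13.2%) and at least 2-fold lower 2144 (13.6%), 1038 (6.6%) were at least 4-fold higher against 1136 (7.23%) lower, and 339 genes (2.16%) were at least 16-fold higher against 243 (1.55%) at least 16-fold lower. The BAT libraries all lay above the IWAT libraries for 3731 genes (23.7%) and all below for 4042 (25.7%). The split depended on scaling: 48.5% of the calls were higher in BAT with TMM and 33.4% with library totals, where 1978 genes were higher and 3947 lower and the median of all genes moved to -0.30. Without BAT replicate 2 the fit called 1806 genes higher and 1657 lower. Of the 339 genes at least 16-fold higher, 137 were in BAT replicate 3 under 25% of their level in BAT replicate 1, against 174 of the 2080 genes at least 2-fold higher. Of the 2144 genes at least 2-fold lower, 99 were in IWAT replicate 3 over 4 times both other IWAT libraries.

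**Figure D2:**
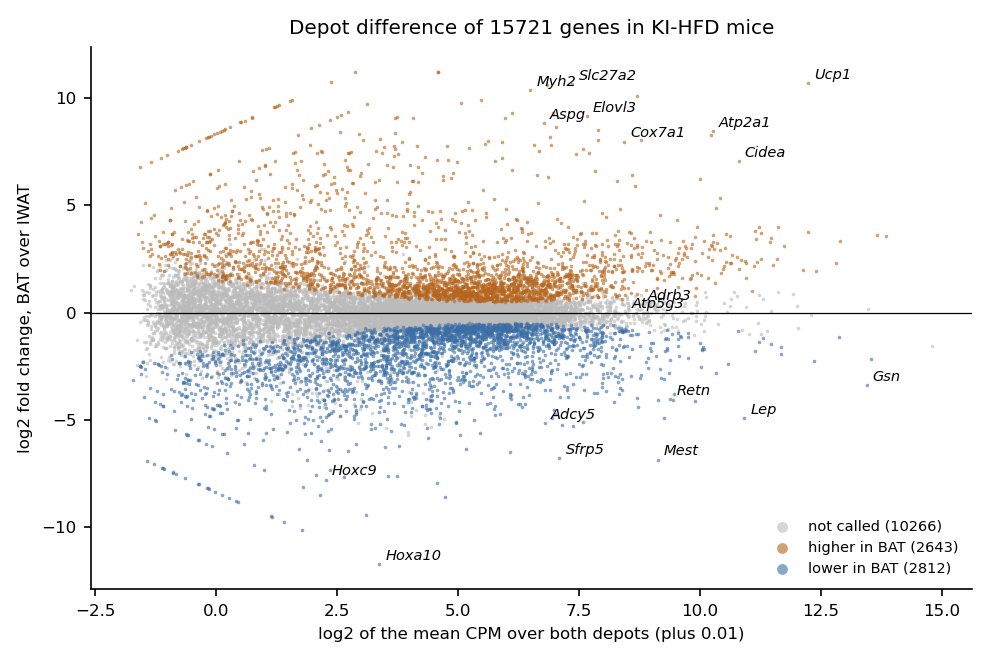
Log2 fold change of BAT over IWAT against the log2 mean CPM of both depots for all 15721 genes tested, with 2643 called higher in BAT, 2812 called lower and the rest not called. Ucp1 stands out as both abundant and more than 10 log2 units higher in BAT, and Hoxa10 has the lowest fitted value. The fitted value of a gene without a count in one depot depends on the prior count.

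The thermogenic genes of brown fat separated the depots widely. Of 34 listed genes, all tested, 31 were higher in BAT and 0 lower, their median log2 fold change being 4.12 against -0.04 over all genes. The list was chosen with earlier results of these data known, so these counts may be partly fixed by that choice. It also holds Aspg, Slc27a2, Fabp3 and Cox7a1, named below among the 12 genes with the lowest p. Ucp1, the uncoupling protein itself (chromosome 8, 83290352 to 83298452, plus strand, GRCm38), was at 11566, 8764 and 8598 CPM in BAT and at 4.53, 9.10 and 3.50 CPM in IWAT. It took 0.798 to 1.00% of all counts of a BAT library. The groups lay far apart, and the log2 fold change was 10.72 ± 0.63 (SE, adjusted p = 5.31e-05). Cidea, a lipid droplet protein of brown adipocytes, was at 3046, 3868 and 3708 CPM in BAT and at 8.37, 51.9 and 19.3 in IWAT (log2 fold change 7.06 ± 0.74, adjusted p = 0.000291). IWAT replicate 2 was the highest IWAT library for Ucp1 and for Cidea.

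Elovl3, which elongates very long-chain fatty acids and is a classic marker of brown fat, was at 450, 430 and 331 CPM in BAT and at 1.25, 0.276 and 0.583 in IWAT (log2 fold change 9.15 ± 0.51, adjusted p = 4.21e-05). Dio2, which makes active thyroid hormone inside the cell, was at 51.1, 13.8 and 29.5 CPM against 0.259, 1.20 and 0.466 (5.62 ± 0.68, adjusted p = 0.000491). Dio2 varied more than 3-fold among the BAT libraries and still did not overlap with IWAT. Kcnk3, a potassium channel of brown adipocytes, was at 371, 394 and 296 CPM against 66.5, 51.5 and 45 (log2 fold change 2.70 ± 0.24). Ppargc1a, the coactivator that drives mitochondrial gene programs, was at 112, 91.6 and 131 CPM against 5.91, 33.1 and 15.9 (2.61 ± 0.52, adjusted p = 0.00538), and its relative Ppargc1b had a log2 fold change of 3.33 ± 0.23. Prdm16, which specifies brown fat, was at 52.7, 50.2 and 52.1 CPM against 17.6, 38.1 and 26.7 (0.91 ± 0.27, adjusted p = 0.0286). The Prdm16 call was lost with library totals and without any single library other than IWAT replicate 2, with log2 fold changes from 0.66 to 0.94. The 3 listed genes without a call were Cidec, Irf4 and Lhx8, the first of which coats large lipid droplets and was at 2182, 1788 and 1721 CPM in BAT against 4588, 3447 and 2305 in IWAT (-0.86 ± 0.34, adjusted p = 0.0846). Cidec was called lower without IWAT replicate 3, with library totals and with DESeq2. Irf4 had the lowest log2 fold change of the list, -1.06, and every BAT library lay below every IWAT library for it. With a replicate block by title number Irf4 was called lower (-1.05, adjusted p = 0.0473).

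**Figure D3:**
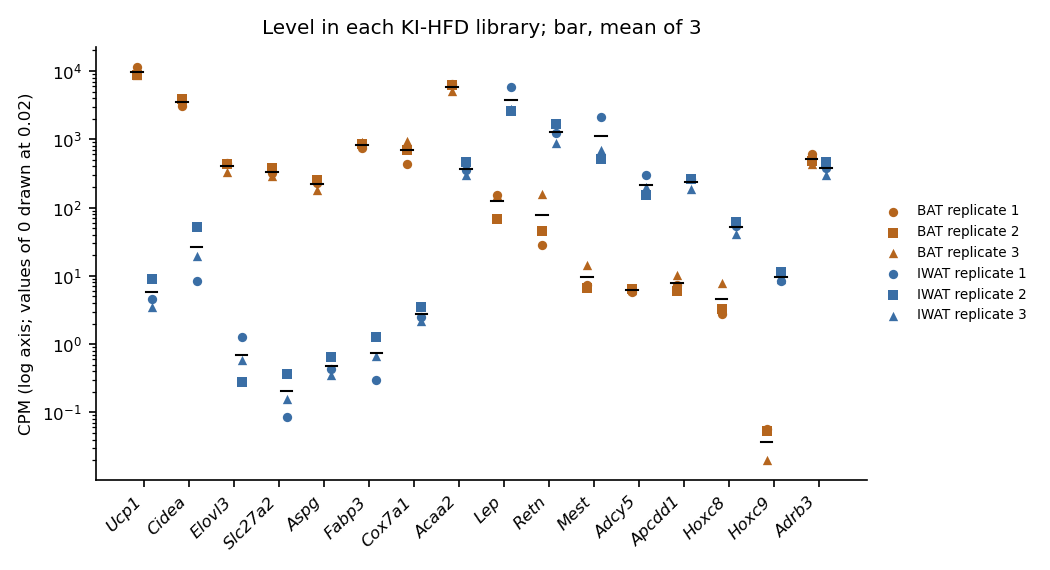
CPM of 16 genes in each of the 6 libraries on a log axis, with the mean of 3 libraries as a bar and a value of 0 drawn at 0.02. The first 8 genes are higher in every BAT library than in every IWAT library and the next 7 are lower, while Adrb3 overlaps between the depots.

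Among all genes, the 12 with the lowest p on the BAT side under the naming rule held several enzymes of fuel handling. Aspg, an asparaginase, was at 226, 251 and 178 CPM in BAT and at 0.431, 0.644 and 0.350 in IWAT (log2 fold change 8.84 ± 0.32, adjusted p = 6.3e-06). Slc27a2, which takes up fatty acids and activates very long-chain ones to acyl-CoA, was at 321, 378 and 288 CPM against 0.0863, 0.368 and 0.155 (10.65 ± 0.43, adjusted p = 9.24e-06). Fabp3, the heart-type fatty acid carrier, was at 756, 850 and 898 CPM against 0.302, 1.29 and 0.661 (10.12 ± 0.53, adjusted p = 3.85e-05). These 3 genes were nearly absent from IWAT and level across the BAT libraries. The part of muscle RNA in them was not tested. Lgr6, a receptor for R-spondins, had 12402 counts over the BAT libraries and 10 over the IWAT libraries (10.6 ± 0.39), and Car14, a membrane carbonic anhydrase, had 2584 against 1, a ratio of 3384 whose 95% counting interval ran from 607 to 133731. Me3, the mitochondrial NADP-dependent malic enzyme, was at 106, 101 and 61.7 CPM against 1.73, 2.07 and 1.28. Gnas, the stimulatory G protein subunit, was at 54.0, 42.7 and 51.8 CPM against 3.36, 3.36 and 3.54, but its transcripts overlap others at the locus and its counts are uncertain. The 12 also held Fbp2, Kng2, Cox7a1, Elovl3 and Syngr1.

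The naming rule added 8 genes for their fold, all lowest among the BAT libraries in replicate 3, as the muscle markers were. For 6 of them, Cacng6, Cacna1s, Klhl40, Myh2, Nmrk2 and Ckmt2, that library was under 25% of BAT replicate 1, while Ucp1 and Rspo4 were above this limit. Myh2, a fast myosin heavy chain, was at 420, 107 and 12.5 CPM in BAT against 0.0863, 0.230 and 0.0777 in IWAT. Cacng6, a calcium channel subunit, was at 24.5, 16.6 and 2.37 CPM against 0 in all 3 IWAT libraries, at least 113-fold higher at a floor of 3 counts per library. For both, BAT replicate 3 stood more than 10-fold below BAT replicate 1, and the part of muscle RNA in these differences was not tested. Rspo4, a secreted R-spondin, was at 18.5, 24.6 and 8.51 CPM against 0.0431, 0 and 0. All 26 genes of the skeletal muscle list were higher in BAT (median log2 fold change 7.72), and the list summed to 21017, 15747 and 3124 CPM in BAT. Its level in BAT replicate 3 was 14.9% of that in replicate 1, and 22 of its 26 members were under 25%.

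Respiratory chain genes rose together. Of 38 nuclear-encoded complex I genes, all tested, 37 were higher in BAT (median log2 fold change 2.72), as were 14 of 14 for complexes II and III (3.14), 15 of 16 tested for complex IV (3.16) and 14 of 17 tested for complex V (2.23), with none lower. Ndufs8, a complex I iron-sulphur subunit, was at 609, 789 and 855 CPM against 82.0, 97.9 and 72.9 (log2 fold change 3.16 ± 0.26, adjusted p = 0.00012). Cycs, cytochrome c, which carries electrons from complex III to complex IV, was at 412, 508 and 552 CPM against 44.4, 58.3 and 39.7 (3.37 ± 0.25, adjusted p = 9.73e-05). Cox5a of complex IV was at 466, 608 and 599 CPM against 40.0, 54.2 and 40.1 (3.64 ± 0.25, adjusted p = 8.09e-05). All 3 were separated between depots by several times the spread within a depot. These subunits were not lowest in BAT replicate 3, where muscle RNA was lowest, whereas Sdha, the flavoprotein of succinate dehydrogenase, was at 5419, 3614 and 1917 CPM in BAT against 692, 1012 and 689. The part of muscle RNA in Sdha and in these subunits was not tested.

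The rotary enzyme driven by the chain had members without a call. ATP synthase needs a ring of c subunits in the membrane, encoded in the mouse by Atp5g1, Atp5g2 and Atp5g3 as identical mature proteins. Atp5g3, named after its values were seen, was at 319, 380 and 359 CPM in BAT and at 321, 433 and 302 in IWAT (log2 fold change 0.00 ± 0.23, adjusted p = 0.996). Atp5g1, also named after the fact, was at 39.9, 38.9 and 16.3 CPM against 30.8, 30.8 and 28.1 (0.09 ± 0.32, adjusted p = 0.862). Atp5g2 was higher in BAT, at 17.1, 21.2 and 23.7 CPM against 6.04, 9.33 and 7.23 (1.45 ± 0.26, adjusted p = 0.00331). By contrast Atp5b, the catalytic beta subunit, was at 15055, 13039 and 7918 CPM against 2226, 3071 and 2017 (2.30 ± 0.41, adjusted p = 0.00317). Reads of Atp5g genes shared with near-identical copies have no unique place and may be missing from these counts. The inhibitor of the enzyme, Atpif1, was at 5.49, 9.25 and 13.1 CPM against 13.1, 13.5 and 15.3 (-0.59 ± 0.33, adjusted p = 0.2), and was the third complex V gene without a call.

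Some promoters are shown because most respiratory chain genes moved together and regulators of such genes are known to bind both motifs searched. Of the genes shown, Atp5g3 did not move and Slc27a2 is not a respiratory chain gene. The estrogen-related receptors, which Ppargc1a coactivates, recognise the extended half-site AAGGTCA, and nuclear respiratory factor 1 recognises sites with the core CGCATGC. Each window runs from 250 bases before to 50 after the start given by RefSeq (GRCm38.p6), both strands were searched, and capitals mark matches. CGCATGC read on both strands overlaps itself as CGCATGCG. The windows are Cycs at chr6:50566520-50566819 (minus strand), Atp5k, a membrane subunit of ATP synthase, at chr5:108434350-108434649 (minus strand), Ndufb4 of complex I at chr16:37654319-37654618 (minus strand), Atp5g3 at chr2:73911277-73911576 (minus strand) and Slc27a2 at chr2:126552774-126553073 (plus strand), all written 5′ to 3′ along the gene. Atp5k and Ndufb4, chosen after their values were seen, had log2 fold changes of 3.18 ± 0.36 and 2.51 ± 0.24. Every window shown holds a match, whereas 9 of 72 windows of nuclear-encoded respiratory chain genes hold AAGGTCA and 12 hold CGCATGC. The windows shown are therefore not typical of these genes.
Cycs: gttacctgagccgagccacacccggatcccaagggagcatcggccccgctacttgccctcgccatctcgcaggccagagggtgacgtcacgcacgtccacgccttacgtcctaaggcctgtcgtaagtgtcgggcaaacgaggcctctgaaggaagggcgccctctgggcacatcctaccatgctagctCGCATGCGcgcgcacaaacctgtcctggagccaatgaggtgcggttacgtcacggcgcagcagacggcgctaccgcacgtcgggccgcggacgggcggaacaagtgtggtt
Atp5k: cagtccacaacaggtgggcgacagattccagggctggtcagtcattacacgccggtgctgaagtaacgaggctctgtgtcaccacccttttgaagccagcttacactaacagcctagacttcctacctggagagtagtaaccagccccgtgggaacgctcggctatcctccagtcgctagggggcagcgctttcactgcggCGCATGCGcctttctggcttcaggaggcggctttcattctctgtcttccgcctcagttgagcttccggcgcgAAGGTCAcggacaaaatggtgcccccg
Ndufb4: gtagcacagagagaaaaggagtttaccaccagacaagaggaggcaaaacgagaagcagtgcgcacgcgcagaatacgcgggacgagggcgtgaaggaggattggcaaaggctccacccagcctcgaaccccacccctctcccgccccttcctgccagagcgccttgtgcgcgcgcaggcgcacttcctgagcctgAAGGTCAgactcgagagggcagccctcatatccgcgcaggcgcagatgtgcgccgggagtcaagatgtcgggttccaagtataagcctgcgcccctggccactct
Atp5g3: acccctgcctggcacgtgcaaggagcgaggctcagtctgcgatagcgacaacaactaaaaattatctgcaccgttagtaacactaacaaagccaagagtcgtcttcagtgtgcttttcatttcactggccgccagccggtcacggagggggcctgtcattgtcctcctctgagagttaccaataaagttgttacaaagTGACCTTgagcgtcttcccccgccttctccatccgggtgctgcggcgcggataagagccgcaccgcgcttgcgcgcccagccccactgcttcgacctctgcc
Slc27a2: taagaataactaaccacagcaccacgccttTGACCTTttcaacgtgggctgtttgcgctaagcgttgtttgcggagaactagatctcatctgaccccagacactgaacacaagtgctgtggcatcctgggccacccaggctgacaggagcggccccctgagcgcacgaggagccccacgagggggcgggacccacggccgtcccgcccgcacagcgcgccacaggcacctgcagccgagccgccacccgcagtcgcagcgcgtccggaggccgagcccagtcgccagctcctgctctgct
Ndufb4 and Atp5g3 each hold 1 half-site, on opposite strands and 55 and 52 bases before the start, and Ndufb4 was called higher in BAT while Atp5g3 was not called.

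RefSeq windows were found for 11175 of the genes tested. AAGGTCA was present in 9 of 72 windows of nuclear-encoded respiratory chain genes (12.5%), in 5.29% of windows of genes at least 2-fold higher in BAT, in 3.14% of those at least 2-fold lower and in 3.49% over all genes tested. CGCATGC was present in 12 of the 72 windows (16.7%), in 5.84% of the windows of the genes 2-fold higher, in 2.85% of those 2-fold lower and in 5.86% over all genes tested. Windows of fatty acid oxidation and citric acid cycle genes held CGCATGC in 17.0% and AAGGTCA in 3.77%. For the thermogenic list the shares were 8.33 and 2.78%, and for the white adipocyte list 12.5 and 0%. A match in these letters is a description and not a bound site.

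The mitochondrial genome moved in the same direction. Of 13 mitochondrially encoded protein genes 8 were tested and all 8 were higher in BAT, at a median log2 fold change of 3.68, while mt-Co2, mt-Co3, mt-Atp6, mt-Atp8 and mt-Nd4l were at or near 0 in these files. Mitochondrial genes took 5.23, 9.34 and 11.7% of the counts of the BAT libraries and 0.657, 1.10 and 0.841% of the IWAT libraries. mt-Cytb, a core subunit of complex III, was at 16410, 27330 and 27904 CPM against 1502, 2630 and 1655 (log2 fold change 3.63 ± 0.48, adjusted p = 0.000742). Of 77 tested mitochondrial ribosomal protein genes, which build the ribosome that translates them, 73 were higher and Mrps6 was lower, with a median of 1.34, below that of every respiratory complex. Mrpl4 was at 265, 258 and 271 CPM in BAT against 80.0, 80.2 and 75.3 in IWAT, with almost no spread within either depot (1.75 ± 0.18, adjusted p = 0.000253). Mrps6 was at 60.4, 68.3 and 66.1 CPM against 131, 93.2 and 88.2 (-0.68 ± 0.20, adjusted p = 0.0286), a call that was lost without any single library other than IWAT replicates 2 and 3.

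Several paired genes shifted in their balance. The pairs other than Cox7a1 and Cox8b were picked after their values were seen. Measured per exon length, Cox7a1, the isoform of heart, muscle and brown fat, made up 60.7 ± 1.68% (SD, n = 3) of Cox7a1 and Cox7a2 in BAT and 4.03 ± 0.26% in IWAT. Cox7a1 was at 433, 705 and 928 CPM in BAT against 2.50, 3.49 and 2.18 (log2 fold change 7.98 ± 0.43), and was highest in BAT replicate 3. Cox8b made up 73.5 ± 1.88% of Cox8b and Cox8a in BAT and 13.1 ± 8.48% in IWAT, where replicate 2 was the highest at 21.0%. Cpt1b, the muscle form of the enzyme that admits long-chain fatty acids to mitochondria, made up 42.4 ± 8.48% of Cpt1b and Cpt1a in BAT against 0.393 ± 0.392% in IWAT. Ldhb, the lactate dehydrogenase subunit of oxidative tissues, made up 40.8 ± 3.64% of Ldhb and Ldha against 9.06 ± 2.22%. Pdk4, which turns off pyruvate dehydrogenase in fasting, made up 75.0 ± 1.72% of Pdk4 and Pdk2 against 44.8 ± 4.96%. Fabp3 made up 27.9 ± 4.79% of Fabp3 and Fabp4 against 0.0369 ± 0.0193%. In each of these 6 pairs the libraries of the depots did not overlap. Cox6a2, by contrast, made up 5.04, 2.79 and 0.439% of Cox6a2 and Cox6a1 in BAT, in the order of the muscle markers. The part of muscle RNA in the levels and shares of these pairs was not tested.

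Most genes of fuel oxidation were higher in BAT. Of 28 fatty acid oxidation genes 23 were higher in BAT and 1 lower (median log2 fold change 2.06), and of 23 citric acid cycle and pyruvate genes 22 were higher and 0 lower (2.45), with 1 lower without BAT replicate 1. The lists summed to 50718, 39942 and 30017 CPM and to 53425, 41432 and 29926 CPM in the BAT libraries, lowest in replicate 3 as the muscle markers were, and the part of muscle RNA was not tested. Acaa2, the last enzyme of mitochondrial beta-oxidation, was at 6401, 6306 and 5066 CPM against 356, 457 and 298 (4.0 ± 0.35, adjusted p = 0.000153). Suclg1, of succinyl-CoA ligase, was at 2304, 2590 and 1979 CPM against 175, 227 and 152 (3.63 ± 0.31, adjusted p = 0.000136). The exception among oxidation genes was Cpt1a, at 42.9, 45 and 33.9 CPM in BAT against 176, 99.6 and 120 in IWAT (-1.70 ± 0.25, adjusted p = 0.00116), the reverse of Cpt1b. Of 41 tested Slc25 carriers of the inner membrane 18 were higher and 4 lower (median 0.58), against 16.8 and 17.9% of all genes. Slc25a20, which exchanges acylcarnitine for carnitine, was at 1273, 1083 and 867 CPM against 105, 124 and 83.2 (3.37 ± 0.29), and Slc25a42, a coenzyme A carrier, was at 799, 534 and 441 against 31.9, 53.3 and 40.7. Slc25a10, the dicarboxylate carrier, went the other way at 27.0, 30.3 and 71.3 CPM against 600.0, 796 and 403 (-3.80 ± 0.46, adjusted p = 0.000491), as did Slc25a25, an ATP-magnesium carrier, at 24.5, 12.9 and 16.1 against 120, 110 and 107.

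Of 27 tested genes of glucose uptake and glycolysis 19 were higher in BAT and 2 lower, median log2 fold change 2.30. Gpd2, the mitochondrial glycerol phosphate dehydrogenase that passes glycolytic electrons to the respiratory chain, was at 1724, 1517 and 967 CPM against 50.8, 92.5 and 65.0 (4.34 ± 0.37, adjusted p = 0.000142). Pgam2, the muscle phosphoglycerate mutase, was at 205, 163 and 44.3 CPM against 0.863, 0.644 and 2.53, in the order of the muscle markers, whereas Pgam1 was at 261, 237 and 200 against 56.5, 53.8 and 43.4. The list as a whole summed to 37371, 32797 and 22044 CPM in BAT, lowest in replicate 3, and the part of muscle RNA in it was not tested. The basal glucose transporters Slc2a1 and Slc2a3 were lower in BAT, Slc2a1 at 11.3, 10.3 and 8.98 CPM against 20.3, 16.9 and 30.6 (-1.15 ± 0.28, adjusted p = 0.0124, a call lost without BAT replicate 2) and Slc2a3 at 2.72, 2.42 and 4.17 against 8.63, 16.9 and 15.8. Of 22 branched-chain amino acid genes 12 were higher and 1 lower (median 0.82), a count that fell to 7 without BAT replicate 2. Bcat1, the cytosolic aminotransferase that starts this pathway, was the lower one, at 0.396, 2.63 and 2.08 CPM against 34.7, 19.5 and 22.7 (-3.90 ± 0.58, adjusted p = 0.00131), while the mitochondrial branched-chain dehydrogenase subunit Bckdha had a log2 fold change of 1.88 ± 0.24.

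Of 11 tested creatine and calcium cycling genes 7 were higher and 1 lower. Alpl, a phosphatase that hydrolyses phosphocreatine in brown fat mitochondria, was at 53.6, 43.8 and 43.4 CPM against 4.27, 7.13 and 6.72 (2.96 ± 0.26, adjusted p = 0.000146). Ryr2, a calcium release channel, was at 12.7, 15.3 and 23.5 CPM against 1.81, 0.552 and 2.80 (3.31 ± 0.55). Alpl was level across the BAT libraries and Ryr2 highest in replicate 3, which held least muscle RNA. Other members were lowest in replicate 3, Ckmt2, a mitochondrial creatine kinase, at 230, 163 and 21.2 CPM, Atp2a1, the calcium pump of fast muscle, at 4071, 2924 and 353, and Ryr1 at 114, 87.2 and 12.9. The part of muscle RNA in the levels of this list was not tested. Gamt, which makes creatine, was lower in BAT at 6.06, 8.93 and 11.8 CPM against 53.6, 34.0 and 24.1 (-2.06 ± 0.36, adjusted p = 0.00274).

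**Figure D4:**
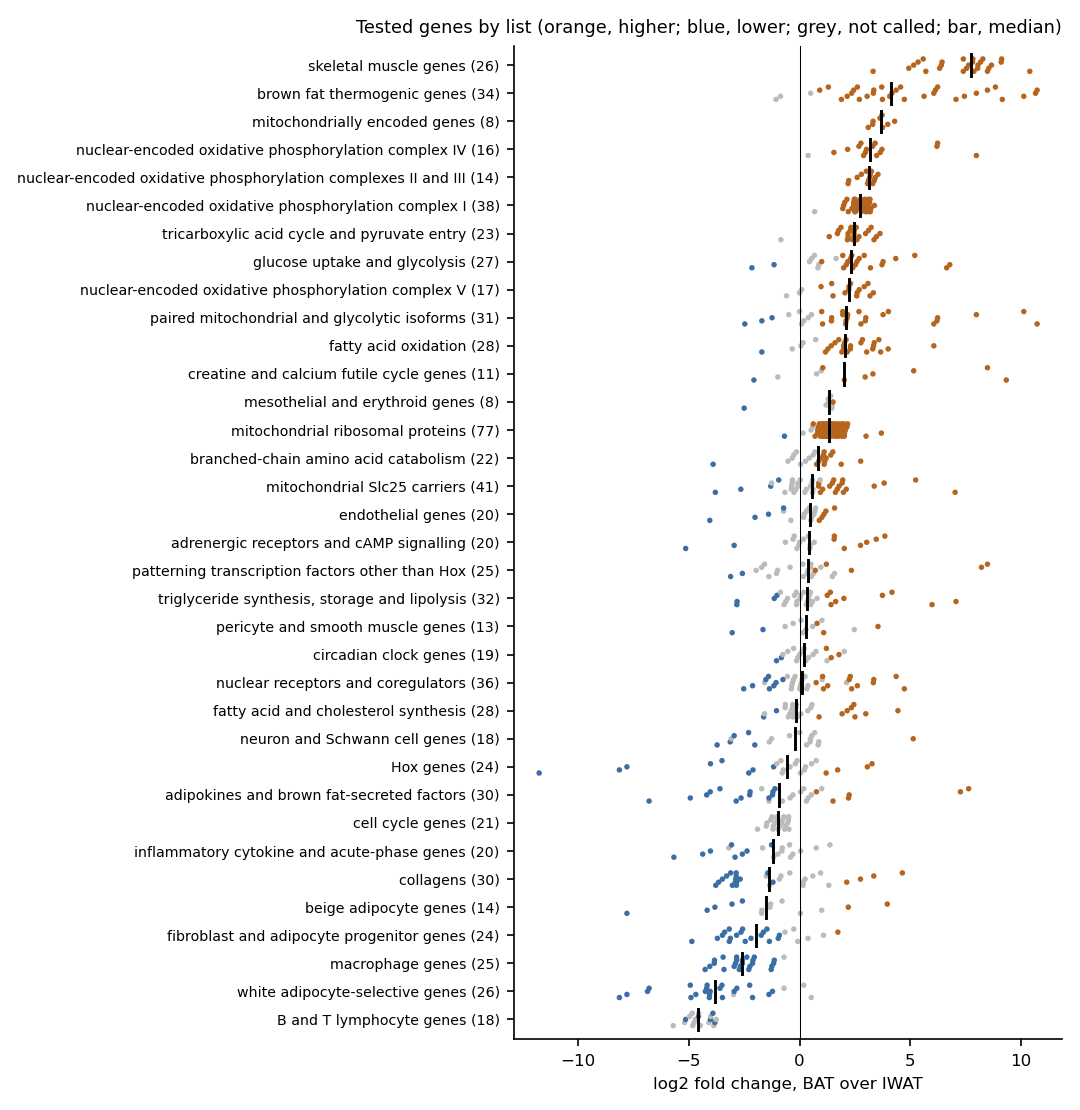
Log2 fold change of BAT over IWAT for each tested gene of the lists with at least 8 tested genes, ordered by the list median (bar). Skeletal muscle genes lie highest with a median of 7.72, the thermogenic list follows at 4.12, and the white adipocyte-selective, macrophage and lymphocyte lists lie lowest.

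Genes that make and store lipid did not move as a block. Of 28 fatty acid and cholesterol synthesis genes 8 were higher, 2 lower and 18 not called (median log2 fold change -0.15). Over all genes 16.8% were higher and 17.9% lower. In this list 4 were lower without BAT replicate 1 or with library totals and 1 without BAT replicate 2 or IWAT replicate 1. Fatty acid synthase (Fasn) was at 12064, 8489 and 5306 CPM in BAT against 1915, 3386 and 1510 (1.92 ± 0.47, adjusted p = 0.0131) and Elovl6, which elongates palmitate, at 521, 577 and 437 against 21.3, 31.5 and 17.8 (4.44 ± 0.30, adjusted p = 7.8e-05). The Fasn call was lost without BAT replicate 1, BAT replicate 2 or IWAT replicate 1, with log2 fold changes from 1.60 to 1.94. The desaturases lay on the other side. Scd1, which makes oleate and was among the most abundant transcripts, was at 19205, 15012 and 8530 CPM in BAT against 53086, 50518 and 24597 in IWAT, without overlap and without a call (-1.58 ± 0.54, adjusted p = 0.0502). Scd1 was called with DESeq2, limma-voom, library totals, a stricter count filter, the block by title number and without IWAT replicate 3. Scd2 was at 268, 123 and 113 CPM against 710, 483 and 354 (-1.62 ± 0.40, adjusted p = 0.0141), a call lost without BAT replicate 2 or IWAT replicate 1.

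Of 32 triglyceride genes 9 were higher and 4 lower (median 0.33), against 16.8 and 17.9% of all genes. Lower were 7 with library totals and 2 without BAT replicate 2. Gk, the glycerol kinase that lets brown fat reuse glycerol, was at 413, 198 and 180 CPM against 16.5, 13.4 and 14 (4.17 ± 0.36, adjusted p = 0.000151), and Plin5, a droplet coat protein of oxidative tissues, at 705, 753 and 602 against 28.5, 80.7 and 44.8 (3.74 ± 0.40, adjusted p = 0.000314). Plin4, the coat protein of white fat, was at 162, 141 and 183 CPM against 1226, 1209 and 1022 (-2.83 ± 0.25, adjusted p = 0.000153). Plin5 and Plin4 thus differed in direction, and 19 of the 32 genes of the list were not called. Lpl, which releases fatty acids from blood lipoproteins, was at 5037, 4453 and 4593 CPM against 13229, 10197 and 7608 (-1.14 ± 0.37, adjusted p = 0.0411), a call lost without any single library other than IWAT replicate 3 and with 2 other scalings. Fabp4, the main fatty acid carrier of adipocytes, was at 8329, 12531 and 15806 CPM in BAT and at 10249, 12933 and 8890 in IWAT, so the groups overlapped (0.19 ± 0.41, adjusted p = 0.755).

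White adipocyte genes were the mirror of the thermogenic list. Of 26 tested, 22 were lower in BAT and 0 higher, median log2 fold change -3.81, and 1 was higher without IWAT replicate 2. This list too was chosen with earlier results of these data known. Lep, the satiety hormone leptin, was at 151, 68.1 and 151 CPM in BAT and at 5885, 2594 and 2769 in IWAT (-4.93 ± 0.53, adjusted p = 0.000313). Retn, resistin, was at 28.3, 45.7 and 156 CPM against 1221, 1663 and 888 (-4.03 ± 0.65, adjusted p = 0.0019). Mest, an imprinted gene that follows fat expansion, was at 7.36, 6.73 and 14.5 CPM against 2115, 510 and 703 (-6.86 ± 0.70, adjusted p = 0.000267). Sfrp5, a secreted Wnt antagonist, was at 0.906, 2.94 and 3.47 CPM against 454, 123 and 236. In these 4 genes no BAT library came near an IWAT library, and for Retn, Mest and Sfrp5 BAT replicate 3 was the highest BAT library. Slc7a10, a small neutral amino acid transporter, had a log2 fold change of -4.17 ± 0.58, and Psat1, of serine synthesis, of -4.25 ± 0.35. Adiponectin (Adipoq), made by every adipocyte, was at 1133, 1294 and 1573 CPM against 3828, 3966 and 2586 (-1.38 ± 0.32, adjusted p = 0.0104), a call lost without BAT replicate 2 (adjusted p = 0.0746).

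Of 30 tested secreted factors 6 were higher in BAT and 13 lower, against 16.8 and 17.9% of all genes. Without BAT replicate 2, 8 were lower. Bmp8b, a thermogenic factor of brown fat, was at 3.96, 3.36 and 4.75 CPM against 0, 0.0460 and 0, a ratio of 283 with a 95% counting interval from 50.2 to 11226. Ptgds, which makes prostaglandin D, was at 31.0, 47.1 and 39.9 CPM against 0.259, 0 and 0.466 (7.26 ± 0.66, adjusted p = 0.000167), and Angptl8, an inhibitor of lipoprotein lipase, was at 73.9, 120 and 83.3 against 13.9, 21.3 and 23.6 (2.24 ± 0.27). Igf1 was at 11.1, 17.1 and 27.2 CPM against 233, 263 and 170 (-3.59 ± 0.35, adjusted p = 0.000241). Cfd, adipsin, was at 1167, 1149 and 3136 CPM against 5441, 14671 and 5904 (-2.25 ± 0.58, adjusted p = 0.0173) and lost its call without BAT replicate 1 or 2.

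Over all genes, 12 were named for the lowest p on the IWAT side. Adcy5, an adenylyl cyclase, was at 5.72, 6.41 and 6.25 CPM in BAT and at 296, 155 and 198 in IWAT (-5.14 ± 0.30, adjusted p = 4.91e-05). Apcdd1, an inhibitor at the Wnt receptor, was at 7.42, 6.09 and 10.3 CPM against 266, 258 and 189 (-4.91 ± 0.28, adjusted p = 4.91e-05). Ret, the receptor of the glial-derived neurotrophic factor family, was at 2.15, 1.52 and 1.62 CPM against 47.2, 31.3 and 38.2 (-4.46 ± 0.28, adjusted p = 6.84e-05). The spread in BAT was small for all 3. Sucnr1, the receptor for extracellular succinate, was at 8.55, 6.78 and 7.47 CPM against 89.9, 75.9 and 62.5 (-3.32 ± 0.21), Heph, a copper-dependent iron oxidase, at 6.46, 5.83 and 10.1 against 138, 162 and 129, and Dpp4, a peptidase and marker of early fat progenitors, at 4.53, 3.63 and 2.84 against 47.6, 47.4 and 49.0. Stc2, Srpx2, Thbs2, Rasa3, Col5a2 and Bcar3 completed the 12, with log2 fold changes from -5.22 to -2.88.

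The 12 genes named for their fold on the IWAT side included Hoxa10, whose fitted value depends on the prior count since BAT held no count of it. Klf14, an imprinted regulator of adipocyte size in the mouse, was at 0, 0 and 0.0579 CPM in BAT against 34.7, 8.46 and 7.89 in IWAT, and Alb, albumin, at 0, 0.105 and 0.290 against 39.1, 85.8 and 34.4. Slc5a7, the choline transporter of cholinergic nerves, was at 0, 0.158 and 0.405 CPM against 47.3 ± 46.7 CPM (SD, n = 3) in IWAT, highest in replicate 1, and Oxtr, the oxytocin receptor, at 1.02, 0.525 and 0.985 against 129, 17.5 and 65.2. Tph2, which makes serotonin in neurons, was at 0.0566, 0.105 and 0.232 CPM against 52.0, 4.41 and 23.5 (-7.61 ± 1.04, adjusted p = 0.000867), a call that limma-voom did not make. For Slc5a7, Oxtr and Tph2 the IWAT libraries themselves spread more than 7-fold, with replicate 1 highest and replicate 2 lowest. Bmp3, a bone morphogenetic protein family member, was steadier at 0.736, 0.998 and 2.66 CPM in BAT against 159, 121 and 123 in IWAT (-6.52 ± 0.45, adjusted p = 8.12e-05).

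Hox genes differed by their place in the clusters. They lie in clusters in which the paralogue number runs from head to tail. Of 39 Hox genes 24 were tested, 4 of them higher and 8 lower in BAT, against 16.8 and 17.9% of all genes. Among paralogues 1 to 5, 4 of 11 tested were higher and 1, Hoxb5, lower (median log2 fold change 0.54). Among paralogues 6 to 7, 0 of 5 were higher and 1, Hoxc6, lower (-0.84). Among paralogues 8 to 13, 0 of 8 were higher and 6 lower (-3.76). Hoxa5 was at 23.3, 30.0 and 27.2 CPM in BAT against 2.59, 3.13 and 2.60 in IWAT (3.27 ± 0.25, adjusted p = 9.73e-05) and Hoxa4 at 6.8, 6.09 and 6.66 against 0.906, 1.01 and 0.427. Hoxc8 was at 2.72, 3.31 and 7.82 CPM against 53.4, 61.7 and 41.3 (-3.50 ± 0.41, adjusted p = 0.000438). Hoxc9 had 2 counts over all BAT libraries and 670 over the IWAT libraries, a ratio of 256 with a 95% counting interval from 70.5 to 2116, and Hoxa10 had 0 against 1464, at least 124-fold lower in BAT at the floor. The calls of Hoxa2 and Hoxc4, both higher, were each lost without any of 4 or 5 single libraries. Hox genes called higher numbered 2 without BAT replicate 1, BAT replicate 2 or IWAT replicate 1 and with library totals. Hoxc6 lost its call without BAT replicate 2.

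**Figure D5:**
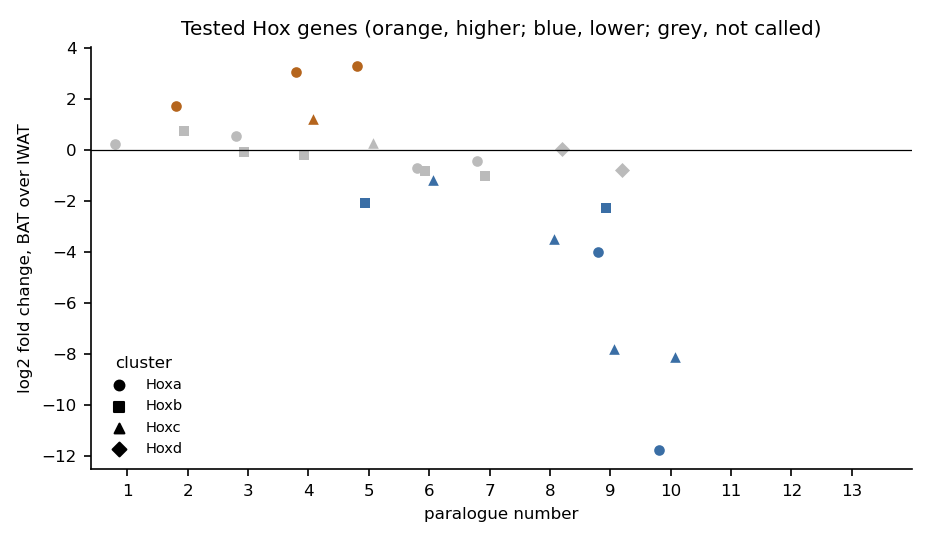
Log2 fold change of BAT over IWAT for the 24 tested Hox genes against paralogue number, with the cluster as the symbol. The 4 genes called higher have paralogue numbers of 5 or less, and all 6 called genes with numbers of 8 or more are lower.

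Of 25 tested patterning factors outside the Hox clusters 5 were higher and 2 lower, against 16.8 and 17.9% of all genes. Higher were 3 without BAT replicate 1 or with library totals, and lower was 1 without IWAT replicate 1 or 2. Zic1, a marker of interscapular brown fat, was at 2.55, 1.89 and 1.97 CPM in BAT and without a count in IWAT, at least 16.7-fold higher at the floor, and its neighbour Zic4 was at 2.61, 1.10 and 1.62 against 0. Tbx5, a factor of the forelimb, was at 10.9, 5.15 and 6.43 CPM against 2.03, 0.919 and 1.48 (2.34 ± 0.46, adjusted p = 0.00476). Shox2 was lower at 2.15, 2.63 and 2.37 CPM against 12.6, 17.1 and 13.1 (-2.58 ± 0.29, adjusted p = 0.000367). Tbx15 and Lhx8, often used as white or brown markers, overlapped between depots, Tbx15 at 32.6, 36.0 and 6.31 CPM against 13.2, 20.4 and 15.0 (0.63 ± 0.54) and Lhx8 at 3.40, 1.94 and 4.86 against 0.647, 3.26 and 3.30 (0.50 ± 0.63). Tbx15 was called higher without BAT replicate 3 (1.09). Of 14 tested beige adipocyte genes 2 were higher, P2rx5 (3.96 ± 0.33) and Eva1a (2.20 ± 0.32), and 5 lower. Over all genes 16.8% were higher and 17.9% lower. The beige list shares Hoxc9, Shox2 and Slc7a10 with lists above.

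Sympathetic nerves switch on brown fat by releasing noradrenaline, which acts through beta-adrenergic receptors and cyclic AMP. Of 20 tested genes of the pathway 7 were higher and 2 lower (median log2 fold change 0.43), against 16.8 and 17.9% of all genes. Adrb3, the main beta receptor of mouse adipocytes, was not called in these mice, at 613, 477 and 432 CPM in BAT and at 382, 472 and 298 in IWAT, with overlapping groups (0.40 ± 0.26, adjusted p = 0.266). Adrb1 was at 38.3, 46.7 and 35.4 CPM against 3.71, 7.4 and 6.76 (2.75 ± 0.30, adjusted p = 0.000323) and the alpha receptor Adra1a at 106, 83.3 and 78.6 against 23.1, 20.6 and 22.5 (2.02 ± 0.19, adjusted p = 0.000185). Adra1b was lower in BAT at 0.0566, 0.315 and 0.521 CPM against 2.80, 2.30 and 1.90. Rgs2, a brake on G protein signalling, was at 137, 74.2 and 165 CPM against 7.64, 10.6 and 15.9 (3.46 ± 0.38). The receptors thus differed in direction, and the cyclase Adcy5 was among the 12 genes lowest in p on the IWAT side.

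Calca, the gene of the peptide CGRP-alpha named in the genotype, was near the limit of detection at 0.0566, 0.210 and 0.463 CPM in BAT and 0.259, 0.919 and 0.544 in IWAT and was not tested. Its receptor needs Calcrl with Ramp1. Calcrl was at 16.7, 18.0 and 13.6 CPM against 19.0, 13.2 and 26.9 (-0.30 ± 0.29, adjusted p = 0.467) and Ramp1 at 10.7, 8.77 and 2.78 against 2.93, 3.63 and 8.59 (0.55 ± 0.57, adjusted p = 0.495), both overlapping. Ramp3, which turns Calcrl into an adrenomedullin receptor, was higher at 2.44, 5.20 and 4.58 CPM against 0.173, 0.138 and 1.17 (3.01 ± 0.80, adjusted p = 0.0194) and lost its call without BAT replicate 2 or IWAT replicate 1. Adm, adrenomedullin itself, was lower at 6.23, 6.2 and 12 CPM against 21.7, 13.1 and 18.4 (-1.12 ± 0.34, adjusted p = 0.033) and lost its call without any single library other than BAT replicate 3 and IWAT replicate 2. Nerve and Schwann cell genes were mixed, with 1 of 18 tested higher and 5 lower, against 16.8 and 17.9% of all genes. The higher one, S100b, which brown adipocytes also make, was at 191, 177 and 217 CPM against 4.05, 8.0 and 4.70 (5.13 ± 0.31, adjusted p = 5.57e-05). Trpv1, a heat-gated channel of sensory nerves, was at 0.793, 0.525 and 1.62 CPM against 10.4, 16.5 and 11.9 (-3.72 ± 0.47, adjusted p = 0.00064).

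Of 36 tested nuclear receptors and their partners 12 were higher and 8 lower, against 16.8 and 17.9% of all genes. Without BAT replicate 2, 5 were lower. Ppara, which drives fatty acid oxidation genes, was at 243, 275 and 241 CPM against 7.72, 22.7 and 6.65 (4.36 ± 0.48, adjusted p = 0.000345), and Esrra, the estrogen-related receptor of the half-site above, at 150, 121 and 109 against 16.4, 30.5 and 27.8 (2.35 ± 0.27, adjusted p = 0.000373). Pparg, the master regulator of all adipocytes, overlapped at 454, 400.0 and 347 CPM against 285, 439 and 285 (0.25 ± 0.25, adjusted p = 0.48). Nrip1, a corepressor of oxidative genes, was at 40.8, 49.1 and 79.7 CPM against 231, 304 and 201 (-2.12 ± 0.30, adjusted p = 0.000969).

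Stromal genes were mostly lower in BAT. Of 24 fibroblast and progenitor genes 18 were lower in BAT and 1, Dlk1, higher, 2 without IWAT replicate 2 (median log2 fold change -1.96), and of 30 tested collagens 15 were lower and 4 higher (-1.39). Col1a1 was at 45.7, 46.0 and 48.9 CPM against 545, 446 and 383 (-3.29 ± 0.23, adjusted p = 8.09e-05) and Gsn, gelsolin, at 1585, 1907 and 2383 against 19314, 25652 and 16068 (-3.38 ± 0.43, adjusted p = 0.00064). Col27a1, a fibrillar collagen, was the main exception at 70.1, 91.6 and 115 CPM against 2.72, 4.37 and 4.0 (4.64 ± 0.29, adjusted p = 6.34e-05). Of 20 tested endothelial genes 5 were higher and 4 lower, against 16.8 and 17.9% of all genes, and 2 were higher with library totals. Emcn, of capillaries and veins, was at 59.2, 63.4 and 110 CPM against 30.8, 23.5 and 23.3 (1.58 ± 0.27, adjusted p = 0.00249), while Lyve1, of lymphatic vessels and some macrophages, was at 1.76, 2.99 and 0.579 against 29.4, 41.1 and 18.8 (-4.05 ± 0.56, adjusted p = 0.000891).

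Macrophage genes were lower in BAT almost without exception. Of 25, all tested, 24 were lower and 0 higher, median log2 fold change -2.58. Every BAT library lay below every IWAT library for 23 of them, against 25.7% of all genes. The list includes Lpl, also counted among the triglyceride genes above. Csf1r, the growth factor receptor of macrophages, was at 21.5, 12.3 and 14.6 CPM against 82.7, 138 and 126 (-2.84 ± 0.29, adjusted p = 0.000259), and Cd163, a scavenger receptor of resident macrophages, at 4.70, 3.94 and 2.32 against 23.5, 61.8 and 34.5. Of 20 tested inflammatory genes 8 were lower and 0 higher, with 2 higher without IWAT replicate 3. The lower ones included Ccl8, a monocyte chemokine, at 2.61, 0.578 and 2.14 CPM against 12.1, 75.7 and 22.1 (-4.37 ± 0.79, adjusted p = 0.00331). The lymphocyte list was uneven among the IWAT libraries. Of 18 tested genes 17 were in IWAT replicate 3 over 4 times both other IWAT libraries. Called lower in BAT were 5, against 17.9% of all genes. The count was 3 without that library, BAT replicate 1 or BAT replicate 3, 2 without BAT replicate 2, and 18 or 19 of the list without IWAT replicate 2 or 1. Ighd, of naive B cells, was at 2.46, 2.39 and 178 CPM in IWAT. Ighm, also made by plasma cells, was at 82.9, 67.3 and 129 CPM in BAT against 1762, 1018 and 1169 in IWAT, high in every IWAT library (-3.82 ± 0.37, adjusted p = 0.000229). Of 21 cell cycle genes edgeR called 0, with 2 at an unadjusted p under 0.05, and DESeq2 called 1, while 3 were called lower without BAT replicate 3 or IWAT replicate 2. All 21 had log2 fold changes below 0 (median -0.97).

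Gene classes differed in the balance of calls. Of 1856 long noncoding RNAs tested 312 were higher and 96 lower (median log2 fold change 0.48), where 16.8% of all genes were called higher and 17.9% lower. The counts were 2246 and 2684 of 13438 protein-coding genes (-0.10), 73 and 22 of 384 pseudogenes (0.50) and 12 and 10 of 43 genes of other classes (0.50).

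The depot difference was also set against that of the WT-NC libraries, fitted on their own. There 4337 of 16173 genes tested were called. With the same direction in both groups were 3466 genes, which is 63.5% of the KI-HFD calls and 79.9% of the WT-NC calls, and 0 were called in opposite directions. A test of the difference between the 2 depot differences over all 12 libraries called 0 of 17395 genes with edgeR, with 831 genes (4.78%) at an unadjusted p under 0.05, while DESeq2 called 28 and limma-voom 0. Among the lowest p values, the log2 fold change of BAT over IWAT was 0.40 in KI-HFD and 2.40 in WT-NC for Adrb3 (difference -1.94, adjusted p = 0.463), 9.15 and 4.86 for Elovl3 (difference 4.34, adjusted p = 0.463) and 2.70 and 1.10 for Kcnk3 (difference 1.66, adjusted p = 0.463). For Ucp1 it was 10.72 and 9.35 (adjusted p = 1).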

How the data were processed

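Poly-A RNA was sequenced single-end without strand information, per the labels' protocols. The authors deposited whole-number read counts for each gene, and the submitters' processing notes list FastQC, STAR, GRCm38.p5, HTSeq and DESeq2 without versions or order. Each file held 55536 genes, all found in the annotation used for names, and the 5 summary tallies in each BAT file were left out (reads in no gene were 4.99 to 10.1% and reads not uniquely placed 22.7 to 30.4% of all entries of a BAT KI-HFD file). BAT files carry these tallies and IWAT files do not, so the depots' files were written differently, and the depot cannot be told apart from any processing batch. No pair of libraries was identical.

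The test was edgeR 4.0.16 under R 4.3.3 (filterByExpr, minimum count 10, TMM, quasi-likelihood F test, two-sided, 6 libraries with 4 residual degrees of freedom). P values were adjusted over all genes tested with a threshold of 0.05. SE is an approximate standard error, the absolute log2 fold change divided by the square root of the F statistic, and n is 3 per depot. Where 1 depot had 0 counts, a bound was taken at a floor of 3 counts per library. With 1 to 3 counts, an exact 95% interval is given. Both cover counting error only. Alternatives used limma 3.58.1, DESeq2 1.42.0, other scalings, filters, blocks and omitted libraries. On simulated data with the real library sizes (15253 genes), edgeR recovered 14.9, 65.7 and 86.4% of genes changed 2-, 4- and 8-fold and called 3 unchanged genes. Only 67, 67 and 66 genes were changed there, and all others had the same mean in both depots. In the real data 34.7% of genes were called, so the recovery there can differ from these shares.

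The lists and the named genes were chosen with earlier results of these data known. The rule named, at 10 CPM or more in the higher depot and without overlap, the 12 genes per direction with the lowest p and the 12 with the largest fold change, up to 4 members per direction and the 2 most abundant of each list, and a fixed set. The 10 genes lowest in p for the group difference were added. Duplicated symbols, near-identical copies, and overlapping or antisense genes are uncertain.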

Additional observations from a re-analysis of the deposited data

How the results depend on the processing

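Of the genes called between the depots, 62.3 to 98.8% kept their call and direction under each alternative and 0 of them changed sign. Genes called lower numbered 1657 to 2744 and genes called higher 1806 to 2512 when single libraries were left out, lowest without BAT replicate 2 for both. For the difference between the groups' depot differences, DESeq2 called 28 genes and dropping the count filter gave 33, against 0 with edgeR; the cause was not tested. With the mitochondrial and muscle genes removed, those lists have no value. In the simulation, which changed far fewer genes than were called here, 14.9% of 2-fold changes were recovered. The share recovered in the real data is not known, and a missing call does not show that levels were alike.

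Whether libraries of the depots came from the same animals was not settled. All 3 numbers in the KI-HFD library file names occur in both depots. Deviations from the depot mean had correlations of 0.042 to 0.123 by title and -0.071 to 0.054 by the number in the file names. For pairs sharing neither number they ran from -0.088 to 0.037. With 3 libraries per depot, such values cannot show whether samples were paired. With a replicate block by title number 2519 genes were higher and 2806 lower, and by the file number 2212 and 2278.

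Sign changes near 0 were seen for Fabp4 (-0.03 with library totals and without BAT replicate 3), for Atp5g1 (-0.18 with library totals and without both BAT replicate 1 and IWAT replicate 3, -0.02 with limma-voom and with the title block, -0.01 with the file-number block, and -0.12 to 0.40 with single libraries left out) and for Atp5g3 (-0.24 with library totals, -0.03 without the count filter, -0.05 without both libraries, and -0.11 to 0.19 with single libraries left out).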
